A study of Homo sapiens with 4 samples.

Results

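The mRNAs of 10 genes of the heterogeneous nuclear ribonucleoprotein (hnRNP) family were described: HNRNPA0, HNRNPA1, HNRNPA3, HNRNPD, HNRNPF, HNRNPH1, HNRNPK, HNRNPL, HNRNPM and HNRNPU. They were found by their gene name among the 13300 gene names of the deposited tables. The 10 genes held 76 of the 34975 listed transcripts, and a gene total was the sum of a gene's listed transcripts. The values came from RNA immunoprecipitation sequencing (RIP-seq), in which an antibody pulls a protein out of a cell lysate and the RNAs that come with it are sequenced. The IgG RIP group (2 libraries) used normal IgG, the background of the method, and the KIAA1429 RIP group (2 libraries) used an antibody against KIAA1429, the large scaffold subunit of the complex that writes N6-methyladenosine (m6A) onto mRNA. HCCLM3 cells, a line of human liver cancer, gave all 4 libraries, and the labels name no further treatment. The comparison asks which mRNAs were recovered more with KIAA1429 than with IgG. No library of the unprecipitated lysate was analysed here, so recovery could not be set against the level of an mRNA in the cells.

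The hnRNP proteins coat nascent transcripts in the nucleus, and they steer splicing, export, stability and translation of the RNAs they bind. Many of them also control the splicing of their own pre-mRNAs, so a single hnRNP gene often makes several mRNAs that differ by an exon. Some family members bind RNA near m6A sites, where the mark can change how well the protein reaches its sequence.

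The values are FPKM, the fragments assigned to a transcript, scaled by its length in kilobases and by the mapped fragments of the library, so levels can be compared between genes. Counts were not used here and the depth of each library is unknown. The FPKM sums ranged from 295573 to 340300 over the libraries, and the share of the 34975 transcripts listed at 0 ranged from 26.6% to 32.2%. These levels are of RNA recovered with an antibody, not of RNA in the cells. A lysate pools many cells, so fewer cells with an mRNA and less of it per cell cannot be told apart. All 8 hepatocyte and hepatoma markers examined were listed, with KRT18 (a keratin of liver epithelium) at 820 to 1048 FPKM and ALB (albumin) at 53.5 to 76.3, but HNF4A (a hepatocyte transcription factor) was low at 0.305 to 1.11. The 4 immune and stromal markers examined, PTPRC, CD3E, COL1A1 and PECAM1, were not among the listed genes. VIRMA, the gene of KIAA1429, totalled 18.0 and 10.01 FPKM in the IgG RIP libraries (replicates 1 and 2) and 18.2 and 11.6 in the KIAA1429 RIP libraries; its own mRNA does not measure recovery of the protein.

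No hnRNP gene was recovered more with KIAA1429 than with IgG beyond the spread between the libraries of a group. Within both replicate numbers, 5 of the 10 were higher in KIAA1429 RIP (HNRNPA3, HNRNPD, HNRNPH1, HNRNPK and HNRNPU). HNRNPA1 and HNRNPL were lower in this way, and 3 went opposite ways in the 2 replicate numbers. The share of all gene totals with such an order was not counted. Group means were higher in KIAA1429 RIP for 7 of the 10 genes and lower for 3, and 0 of the 10 passed the test of limma on log2(FPKM + 1), which called 0% of the 11361 gene totals tested (Benjamini-Hochberg adjusted p under 0.05 and a log2 fold change beyond 1). At an unadjusted p under 0.05, limma had 360 gene totals higher (3.17%) and 162 lower (1.43%), and none of the 10 hnRNP genes was among them. The median log2 fold change was 0.17 over the 10 genes and 0.02 over all gene totals tested. In 8 of the 10 genes, both replicate 1 libraries lay above both replicate 2 libraries, which was so for 25.9% of all gene totals, and the reverse, seen in 15.7% of all, was seen in 0 of the 10.

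HNRNPA1 had the highest level of the 10 genes. It averaged 347 FPKM over the 4 libraries and ranked 116 of the 13300 gene names. Then came HNRNPK at 178, HNRNPA3 at 153, HNRNPM at 84.6, HNRNPL at 79.0, HNRNPD at 71.8, HNRNPF at 60.1, HNRNPH1 at 44.1, HNRNPA0 at 43.5 and HNRNPU at 43.4. The lowest HNRNPA1 library (308 FPKM) was above the highest HNRNPK library (238 FPKM). Every other pair of neighbours in this order overlapped across the libraries.

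**Figure D1:**
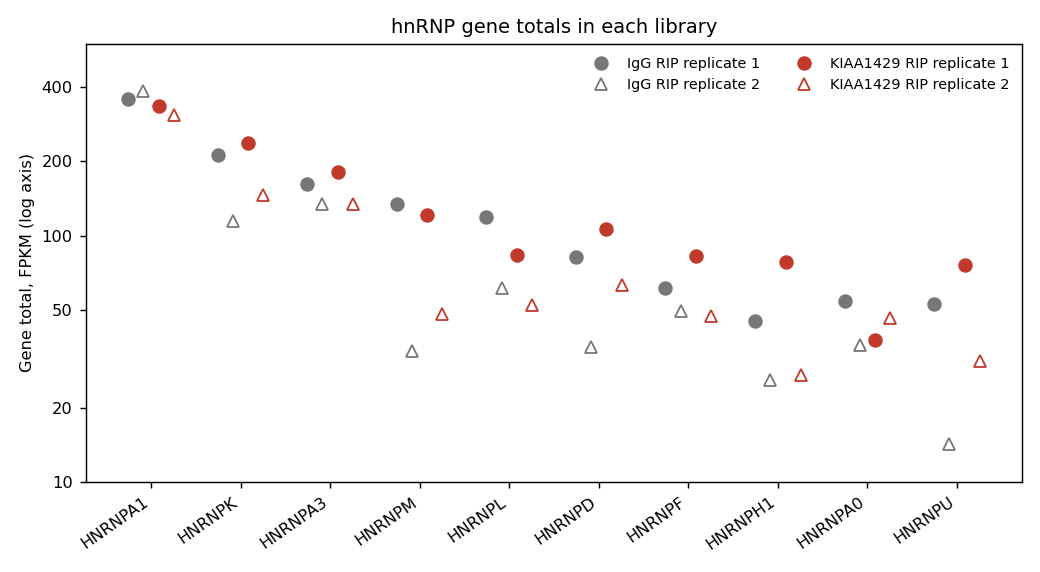
Gene totals in FPKM (vertical log axis) of the 10 hnRNP genes in each of the 4 libraries, ordered by mean, with grey for IgG RIP, red for KIAA1429 RIP, filled circles for replicate 1 and open triangles for replicate 2. The circles lie above the triangles in 8 genes, and HNRNPA1 and HNRNPA0 are the exceptions.

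HNRNPA1, a splicing repressor and one of the most abundant hnRNP proteins, lies on the plus strand at chr12:54673977-54680871 (GRCh37). Its total was 360 and 387 FPKM in IgG RIP, against 335 and 308 in KIAA1429 RIP (replicates 1 and 2). It was the only one of the 10 genes whose groups did not overlap, with both KIAA1429 RIP libraries below both IgG RIP libraries, as in 15.2% of all gene totals; the opposite order, found in 16.6% of all, was found in 0 of the 10. The limma log2 fold change was -0.22 (SE 0.31, adjusted p = 0.997). When each transcript was weighted by its length, the totals (FPKM times length in kilobases) were 731, 709, 709 and 769 in the same order of libraries, and the groups overlapped.

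Within HNRNPA1 the main transcripts moved against each other. HNRNPA1-202, the longer coding form, was 255 and 281 FPKM in IgG RIP, against 189 and 93.7 in KIAA1429 RIP. HNRNPA1-203, a shorter coding form, was 54.0 and 32.7 FPKM in IgG RIP, against 75.6 and 127 in KIAA1429 RIP. In both transcripts the groups did not overlap, a pattern whose share over all transcripts was not counted. Over all gene totals, 16.6% had both KIAA1429 RIP libraries above both IgG RIP libraries and 15.2% had them below.

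HNRNPA1-203 was the only one of 60 hnRNP transcripts with an unadjusted p under 0.05 in limma, at a log2 fold change of 1.20 (SE 0.43, unadjusted p = 0.041, adjusted p = 0.879). HNRNPA1-202 had a log2 fold change of -1.002 (SE 0.42, adjusted p = 0.879). The deposited models of the 2 transcripts also end at different places, at 54678998 for HNRNPA1-202 and at 54680871 for HNRNPA1-203. Of the 2, only HNRNPA1-203 covers the far 3′ end. HNRNPA1-204 also reaches past 54678998. HNRNPA1-214, chosen after its values were seen, lies in the far 3′ end, at 3.15 and 0 FPKM in IgG RIP, against 4.64 and 0 in KIAA1429 RIP. The part of these ends in the shift was not tested. The files listed HNRNPA1P48, a near copy of HNRNPA1, at 7.44 and 0 FPKM in IgG RIP, against 6.36 and 0 in KIAA1429 RIP, and HNRNPA1L2, another, at no more than 4.09. The annotation holds 74 HNRNPA1 pseudogenes, and how the counting shared reads between copies is not stated.

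HNRNPA3, a close relative of A1 that is involved in mRNA transport and telomere binding, lies at chr2:178077291-178088686. Its total was 163 and 134 FPKM in IgG RIP, against 181 and 135 in KIAA1429 RIP, with a log2 fold change of 0.08 (SE 0.31, adjusted p = 0.997 in limma). The total hid an exchange between transcripts that followed the replicate number. HNRNPA3-201 was 73.0 and 7.58 FPKM in IgG RIP, against 93.8 and 10.6 in KIAA1429 RIP. HNRNPA3-204, chosen here after its values were seen, ran the other way, at 10.4 and 86.3 FPKM in IgG RIP, against 10.9 and 76.5 in KIAA1429 RIP. The sum of the pair was 83.4 and 93.8 FPKM in IgG RIP, against 105 and 87.1 in KIAA1429 RIP. Both have the same 1134 coding bases in the annotation. The third main transcript, HNRNPA3-202, was 77.9 and 40.3 FPKM in IgG RIP, against 74.7 and 47.4 in KIAA1429 RIP. HNRNPA3 overlaps NFE2L2 on the other strand, and NFE2L2 stayed between 29.7 and 34.0 FPKM.

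HNRNPA0, a single-exon gene whose protein binds AU-rich mRNA ends, lies on the minus strand at chr5:137081340-137090065. Its only listed transcript was 54.2 and 36.1 FPKM in IgG RIP, against 37.7 and 46.2 in KIAA1429 RIP. It was higher in replicate 1 with IgG and in replicate 2 with KIAA1429, and the groups overlapped. Its log2 fold change was -0.08 (SE 0.33, adjusted p = 0.997 in limma).

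HNRNPD (AUF1), which binds AU-rich elements and promotes decay of the mRNAs that carry them, lies on the minus strand at chr4:83273651-83295656. Its total was 82.0 and 35.4 FPKM in IgG RIP, against 107 and 62.9 in KIAA1429 RIP. The highest library was KIAA1429 RIP replicate 1 and the lowest IgG RIP replicate 2. The log2 fold change was 0.59 (SE 0.47, adjusted p = 0.997 in limma). A pair of coding exons, one of 57 bases at chr4:83292681-83292737 and one of 147 bases at chr4:83277690-83277836, are spliced in or out and give the known AUF1 isoforms. Their junctions are shown on the minus strand, because they tell those isoforms apart. Each is 30 coding bases of GRCh37, 15 from the exon before the junction in lower case and 15 after it in capitals.
HNRNPD-201, exon of 57 bases included: cgaggaggatgaaggCCATTCAAACTCCTC
HNRNPD-202, exon of 57 bases skipped: cgaggaggatgaaggGAAAATGTTTATAGG
HNRNPD-201, exon of 147 bases included: gtggaagaggtggtgGCCCCAGTCAAAACT
HNRNPD-203, exon of 147 bases skipped: gtggaagaggtggtgACCAGCAGAGTGGTT

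Each exon's share was taken over the transcripts that hold the sequence on both sides of it, within their deposited bounds. Among these, transcripts without the exon of 57 bases held 34.2% and 36.6% of the FPKM in IgG RIP, against 40.1% and 43.97% in KIAA1429 RIP. Those without the exon of 147 bases held 47.5% and 39.0% in IgG RIP, against 43.96% and 42.96% in KIAA1429 RIP. Both KIAA1429 RIP libraries were above both IgG RIP libraries for the exon of 57 bases, while the groups overlapped for the exon of 147 bases. No test was made, and no share over the exons of other genes was taken. For the HNRNPM and HNRNPK stretches described below, the groups also overlapped. The share without the exon of 57 bases includes HNRNPD-204, chosen after its values were seen. HNRNPD-204 was 3.61 FPKM in KIAA1429 RIP replicate 2 and 0 in the other libraries. HNRNPD-202 was 22.5 and 12.5 FPKM in IgG RIP, against 23.0 and 18.8 in KIAA1429 RIP, and HNRNPD-203 was 25.9 and 9.47 against 21.4 and 19.9. HNRNPD-208, a short partial model chosen after its values were seen, was 13.7 and 0 FPKM in IgG RIP, against 46.7 and 11.0 in KIAA1429 RIP. It held 16.7% and 0% of the gene total with IgG and 43.7% and 17.5% with KIAA1429. It starts past the exon that precedes the exon of 57 bases and ends inside the exon of 147 bases, so it is in neither share. The separation for the exon of 57 bases therefore leaves out its FPKM.

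HNRNPF and HNRNPH1 encode related proteins that bind runs of G and regulate splicing. The HNRNPF total (minus strand, chr10:43881065-43904614) was 61.1 and 49.6 FPKM in IgG RIP, against 82.8 and 47.0 in KIAA1429 RIP, with a log2 fold change of 0.18 (SE 0.36, adjusted p = 0.997 in limma). KIAA1429 RIP replicate 2 had most of its HNRNPF FPKM listed under a different transcript. HNRNPF-201 was 40.9 and 39.7 FPKM in IgG RIP and 51.9 in KIAA1429 RIP replicate 1, but was listed at 0 in KIAA1429 RIP replicate 2. HNRNPF-207, chosen after its values were seen, was 0.840 and 2.36 FPKM in IgG RIP, 1.94 in KIAA1429 RIP replicate 1 and 32.2 in KIAA1429 RIP replicate 2. Both carry the same 1245 coding bases and differ in their first exon and their 3′ end. The 5 HNRNPF transcripts with this coding sequence summed to 49.6 and 43.2 FPKM in IgG RIP, against 60.6 and 46.3 in KIAA1429 RIP. How reads shared by these transcripts were split is not stated. HNRNPF-206, listed as processed_transcript, was 11.5 and 6.39 FPKM in IgG RIP, against 22.2 and 0.669 in KIAA1429 RIP.

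HNRNPH1 (minus strand, chr5:179041179-179061785) was split over 18 listed transcripts, the most of any of the 10 genes. Its total was 45.1 and 26.0 FPKM in IgG RIP, against 78.4 and 27.1 in KIAA1429 RIP, with a log2 fold change of 0.42 (SE 0.53, adjusted p = 0.997 in limma). KIAA1429 RIP replicate 1 stood above the other libraries. HNRNPH1-201 was 18.8 and 0 FPKM in IgG RIP, against 35.4 and 13.6 in KIAA1429 RIP. HNRNPH1-204 was 3.71 and 7.07 FPKM in IgG RIP, against 1.83 and 5.02 in KIAA1429 RIP, higher in replicate 2 with both antibodies. HNRNPH2, whose coding sequence is close to that of HNRNPH1, was 29.1 and 5.83 FPKM in IgG RIP, against 3.41 and 27.4 in KIAA1429 RIP, and how reads shared by the pair were split is not stated.

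HNRNPK, which binds poly(C) stretches through its KH domains and acts in transcription and translation, lies on the minus strand at chr9:86582998-86595519. Its total was 213 and 115 FPKM in IgG RIP, against 238 and 146 in KIAA1429 RIP, with a log2 fold change of 0.25 (SE 0.41, adjusted p = 0.997 in limma). HNRNPK-202 carried most of it, at 121 and 86.4 FPKM in IgG RIP, against 185 and 116 in KIAA1429 RIP. HNRNPK-201 was 59.7 and 9.66 FPKM in IgG RIP, against 32.0 and 19.9 in KIAA1429 RIP. HNRNPK-206, chosen after its values were seen, lacks a coding exon of 72 bases at chr9:86588817-86588888 and was 18.1 and 9.05 FPKM in the replicate 1 libraries of IgG RIP and KIAA1429 RIP, and listed at 0 in both replicate 2 libraries. The junctions on the minus strand are shown for this exon.
HNRNPK-202, exon included: cctaccttggaagagGGCCTGCAGTTGCCA
HNRNPK-206, exon skipped: cctaccttggaagagTACCAACACTATAAA

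HNRNPL, which binds CA-rich RNA and regulates splicing, lies on the minus strand at chr19:39327028-39342978. Its total was 119 and 61.4 FPKM in IgG RIP, against 83.5 and 52.2 in KIAA1429 RIP. It had the lowest log2 fold change of the 10 genes, -0.37 (SE 0.41, adjusted p = 0.997 in limma), and it was lower in KIAA1429 RIP within both replicate numbers. HNRNPL-201 held most of the total, at 110 and 42.1 FPKM in IgG RIP, against 76.1 and 35.3 in KIAA1429 RIP. HNRNPL-210 was much lower and steadier, at 8.70 and 7.41 FPKM in IgG RIP, against 7.06 and 5.68 in KIAA1429 RIP.

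HNRNPM, which binds GU-rich RNA and is known for its part in splicing changes during epithelial to mesenchymal transition, lies on the plus strand at chr19:8509651-8553998. Its total was 135 and 34.0 FPKM in IgG RIP, against 122 and 48.0 in KIAA1429 RIP, with a log2 fold change of 0.17 (SE 0.69, adjusted p = 0.997 in limma). The replicate 1 total was 3.96 times the replicate 2 total in IgG RIP and 2.53 times in KIAA1429 RIP. With each transcript weighted by its length, the gap was smaller. These totals were 194 and 83.2 in IgG RIP, against 183 and 111 in KIAA1429 RIP. Most of the gap in FPKM lay in a single transcript, HNRNPM-213, whose model ends at 8550532, before the end of the gene. HNRNPM-213 was 89.1 FPKM in IgG RIP replicate 1 and 71.3 in KIAA1429 RIP replicate 1, and was listed at 0 in both replicate 2 libraries. Without it, the HNRNPM total was 45.7 and 34.0 FPKM in IgG RIP, against 50.3 and 48.0 in KIAA1429 RIP, where both KIAA1429 RIP libraries lay above both IgG RIP libraries, a trimming made after the values were seen. HNRNPM-201 was 32.5 and 11.5 FPKM in IgG RIP, against 25.7 and 24.5 in KIAA1429 RIP, and HNRNPM-202, chosen after its values were seen, was 1.07 and 19.8 against 10.2 and 16.1.

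The HNRNPM transcripts part at 2 coding places. HNRNPM-213 lacks an exon of 45 bases at chr19:8538548-8538592, and both HNRNPM-202 and HNRNPM-213 lack a stretch of 117 bases at chr19:8530247-8530363 that HNRNPM-201 keeps. Their junctions on the plus strand are shown because they tell these transcripts apart. For HNRNPM-201 the bases run on within an exon, and the capitals mark where the stretch begins, not a junction.
HNRNPM-202, exon of 45 bases included: acataggtcccgcagGAATGGGAATGGAAG
HNRNPM-213, exon of 45 bases skipped: acataggtcccgcagGAATGGAGGGGCCCT
HNRNPM-201, stretch of 117 bases kept: agagcaatgcaaaagGTGATGGCTACGACT
HNRNPM-202, stretch of 117 bases removed: agagcaatgcaaaagGCTGGAAGACTTGGA

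Transcripts without the exon of 45 bases held 68.4% of the FPKM in IgG RIP replicate 1 and 60.2% in KIAA1429 RIP replicate 1, and 0% in both replicate 2 libraries. Those without the stretch of 117 bases held 73.5% and 63.3% in IgG RIP, against 76.0% and 39.7% in KIAA1429 RIP. For the HNRNPK exon of 72 bases the skipping share was 8.51% and 3.86% in the replicate 1 libraries of IgG RIP and KIAA1429 RIP, and 0% in the replicate 2 libraries.

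HNRNPU (SAF-A), a large protein that binds chromatin and nascent RNA, lies on the minus strand at chr1:245009927-245027862. Its total was 52.9 and 14.3 FPKM in IgG RIP, against 75.7 and 30.9 in KIAA1429 RIP, with the highest log2 fold change of the 10 genes, 0.78 (SE 0.66, adjusted p = 0.997 in limma). It was higher in KIAA1429 RIP within both replicate numbers, yet the replicate 2 library of KIAA1429 RIP lay below the replicate 1 library of IgG RIP. HNRNPU-226 was 16.8 and 6.90 FPKM in IgG RIP, against 16.5 and 15.9 in KIAA1429 RIP. HNRNPU-205 was 10.2 and 0.00191 FPKM in IgG RIP, against 18.5 and 9.85 in KIAA1429 RIP. IgG RIP replicate 2 was the low library for both.

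**Figure D2:**
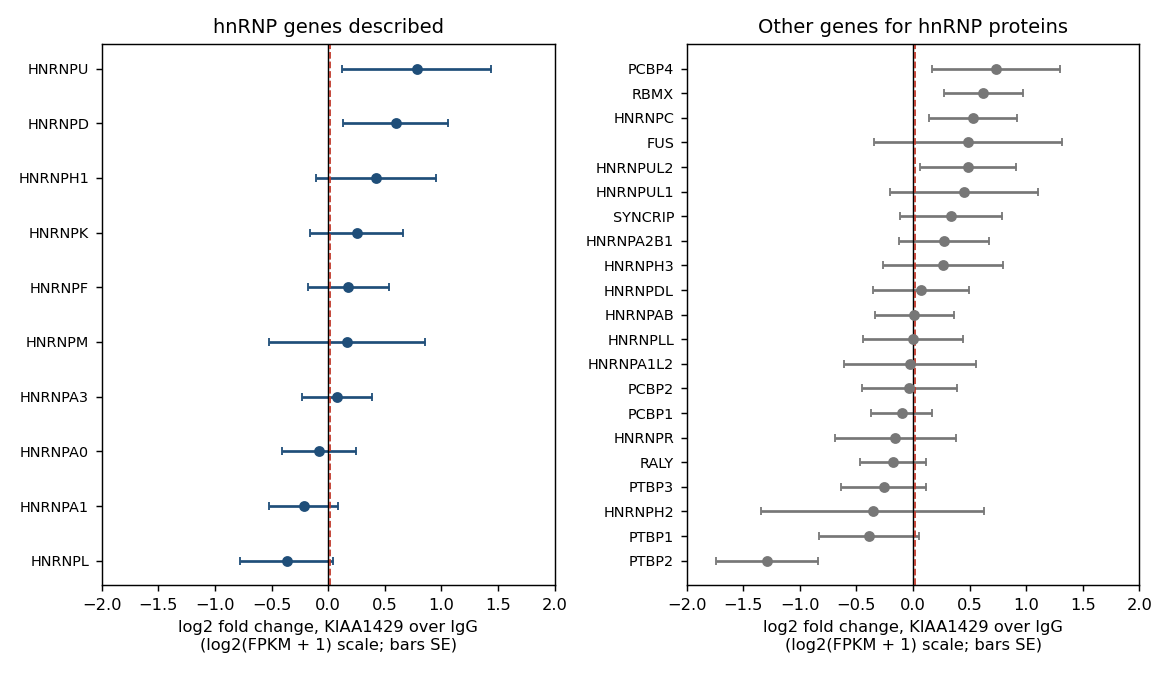
Log2 fold change of KIAA1429 RIP over IgG RIP (horizontal axis, log2(FPKM + 1) scale, points with SE bars from limma) for the 10 hnRNP gene totals on the left and 21 other genes for hnRNP proteins on the right, with the dashed line at the median of all gene totals, 0.02. The 10 genes run from -0.37 (HNRNPL) to 0.78 (HNRNPU), and in the right panel PTBP2 stands apart at -1.29.

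Of the 76 listed hnRNP transcripts, 60 averaged 1 FPKM or more and were tested, and 0 passed the limma test, which called 0% of the 23375 transcripts tested. At an unadjusted p under 0.05, 1 was higher (HNRNPA1-203), beside 3.03% of all, and 0 were lower, beside 2.33%. By group means, 17 were at least 2-fold higher in KIAA1429 RIP and 6 at least 2-fold lower, where 19.9% and 20.3% of all transcripts were. HNRNPH1, with 18 listed transcripts, held 6 of the 17, and HNRNPU, with 10 listed, held 4. Of the genes, 7 had a transcript in the higher set and 5 of these also had one in the lower set. The counts rested on single libraries. Without IgG RIP replicate 1 there were 28 higher, where 31.4% of all transcripts were. Without KIAA1429 RIP replicate 1 there were 9 higher and 22 lower, where 17.7% and 29.4% of all were. No gene total was 2-fold apart in either direction, where 7.58% of all gene totals were 2-fold higher and 6.14% 2-fold lower, but 4 were 2-fold higher without IgG RIP replicate 1, beside 16.2% of all, and 2 without KIAA1429 RIP replicate 2, beside 9.65% of all.

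Transcripts that kept a 2-fold gap in the same direction within both replicate numbers were fewer. There were 7 hnRNP transcripts of 4 genes higher in KIAA1429 RIP in this way, 11.7% of the 60 beside 7.03% of all, and 1 lower, 1.67% beside 6.87%. HNRNPF-207 and HNRNPD-208 were the most abundant of the 7, a ranking made after their values were seen, and 4 of the others belonged to HNRNPH1 at means under 2 FPKM. With the replicate number in place of the antibody, 13 hnRNP transcripts of 7 genes were at least 2-fold higher in replicate 1 in both groups, 21.7% of the 60 beside 8.8% of all, and 4 were at least 2-fold higher in replicate 2, 6.67% beside 6.34%. Of the 76 listed transcripts, 8 were listed at 0 in both replicate 2 libraries and above 0 in both replicate 1 libraries, 10.5% of them beside 3.45% of all listed transcripts, and 0 had the reverse pattern, beside 2.27% of all. None of the 76 was at 0 in both IgG RIP libraries and above 0 in both KIAA1429 RIP libraries, as 3.20% of all were, or the reverse, as 2.96% of all were.

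The exchange between transcripts was measured as the share of a gene's FPKM that would have to move from one transcript to another to turn one library's makeup into that of another. Over the 9 genes with several listed transcripts, its median was 15.8% between the replicate 1 libraries of the 2 groups and 31.0% between the replicate 2 libraries. Between replicates 1 and 2 it was 30.2% with IgG and 40.7% with KIAA1429. Among the 1013 gene totals with several transcripts and a mean at least as high as that of the lowest of the 10 genes, the medians over the library pairs lay between 11.6% and 13.4%. Over all 7580 gene totals with several transcripts they lay between 26.3% and 29.6%. For HNRNPA3 the share was 57.9% between the IgG RIP replicates but 6.96% between the replicate 1 libraries. For HNRNPK it was 3.80% between the KIAA1429 RIP replicates and 22.2% between the replicate 1 libraries, and for HNRNPA1 it was 33.8% and 15.8% between the same pairs. For HNRNPF it was 92.6% between the replicate 2 libraries of the 2 groups and 9.85% between the replicate 1 libraries. Over the 60 transcripts, which share genes, Spearman's rho was 0.76 between the replicate 1 libraries, 0.61 between the replicate 2 libraries and 0.43 to 0.48 for the other pairs, while over all transcripts it ran from 0.49 to 0.54.

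The summed FPKM of the 10 genes showed the same order of libraries. It was 1284 and 892 in IgG RIP, against 1340 and 903 in KIAA1429 RIP, which was 0.434% and 0.283% of the FPKM in IgG RIP, against 0.398% and 0.265% in KIAA1429 RIP. The log2 ratio of the group means was 0.04, with a combined SD of 0.55 on the log2 scale. The median log2 ratio of replicate 1 to replicate 2 was 0.81 over the 10 genes and 0.11 over all gene totals. GAPDH, a glycolytic enzyme often used as a reference, ran against the hnRNP genes, at 432 and 779 FPKM in IgG RIP, against 602 and 1076 in KIAA1429 RIP. Of the hepatocyte and hepatoma markers, ALB and TTR ran as GAPDH did. VIRMA and the marker KRT8 had the order of the hnRNP genes, KRT8 at 432 and 260 FPKM in IgG RIP, against 376 and 278 in KIAA1429 RIP. The other markers had neither order. The labels do not say what the replicate number stands for, and its part in these values was not tested.

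Nearly all of the hnRNP signal was in transcripts listed as protein_coding, 67 of the 76. The other 9, listed as processed_transcript, held 2.11% and 1.31% of the summed FPKM in IgG RIP, against 2.59% and 0.304% in KIAA1429 RIP. Over all listed genes, such and other noncoding types held at least 12.1% of each library. That share also covers noncoding genes, so it is not a like measure for 10 protein-coding genes. HNRNPF had the largest noncoding share among the 10 genes in KIAA1429 RIP replicate 1, 26.8%, and only 1.42% in KIAA1429 RIP replicate 2. GENCODE now types 5 of the 76 as nonsense_mediated_decay and 3 as retained_intron, the kinds of RNA that hnRNP genes make when they limit their own expression. Of those, HNRNPA1-210 was the most abundant, at 7.64 and 3.86 FPKM in IgG RIP, against 4.69 and 0 in KIAA1429 RIP. HNRNPH1-239 was 2.25 and 1.08 FPKM in IgG RIP, against 4.01 and 0 in KIAA1429 RIP. Within both replicate numbers, HNRNPA1-210 and HNRNPD-206 were lower with KIAA1429, and HNRNPH1-215, HNRNPH1-217 and HNRNPH1-229 were higher. The rest had neither order. These transcripts were chosen after their values were seen.

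GGAC, the core of the sequence in which m6A is usually written, was counted in the spliced GENCODE sequence of each gene's most abundant transcript, on the RNA strand only. All 10 held it, as did 97.9% of the 26600 listed protein_coding transcripts with a sequence. HNRNPK-202 had 4.91 per kilobase and HNRNPF-201 had 3.66, beside a median of 3.83 over all. HNRNPA3-202 was the lowest at 1.58, and the median of the 10 was 2.57. A match is only these letters in the sequence and does not mark a methylated site.

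The other genes for hnRNP proteins gave a like picture. Of 24 on the list, 21 were listed and tested, and 0 passed the limma test. Log2 fold changes were above 0 for 11 and below 0 for 10, with a median of 0.01. At an unadjusted p under 0.05 in limma, 0 were higher, beside 3.17% of all gene totals, and 1 was lower, beside 1.43%. That gene was PTBP2, the neural form of the polypyrimidine tract binding protein, at 13.7 and 7.91 FPKM in IgG RIP, against 3.80 and 3.56 in KIAA1429 RIP, with a log2 fold change of -1.29 (SE 0.45, adjusted p = 0.997 in limma). Both replicate 1 libraries lay above both replicate 2 libraries in 13 of the 21, beside 25.9% of all gene totals. The reverse was seen in 2 of the 21, beside 15.7% of all. Of the 3 highest, HNRNPC, which packages pre-mRNA, was 209 and 109 FPKM in IgG RIP, against 250 and 190 in KIAA1429 RIP, and HNRNPA2B1, described as a reader of m6A, was 114 and 78.3 against 160 and 81.8. PCBP2, a poly(C)-binding relative of hnRNP K, ran the other way with the replicate number, at 180 and 284 FPKM in IgG RIP, against 160 and 304 in KIAA1429 RIP.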

How the data were processed

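RIP-seq was done by the authors in HCCLM3 cells with an antibody against KIAA1429 or normal IgG, and the groups and replicate numbers (2 libraries each) come from the labels, which do not say that libraries came from separate cultures. P-values measure the spread between these libraries, which may be technical. Per the methods, poly(A) RNA was fragmented, sequenced and aligned to GRCh37/hg19 with HISAT2, while the submitters' processing notes name Bowtie2 2.1.0. The authors deposited FPKM per transcript, without a stated scaling between libraries. The tool, the annotation release and the strand rule are not given in the sources used here. Nor is the way reads were shared between transcripts of the same gene, and its part in the exchanges between transcripts was not tested. The higher group mean was at least 0.500 FPKM for every listed transcript.

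FPKM was summed per gene name. Features averaging 1 FPKM or more entered limma (version 3.58.1, R 4.3.3) on the log2(FPKM + 1) scale, with a trended eBayes prior, two-sided p-values and adjustment after Benjamini and Hochberg over all features. Fold changes on this scale understate the change of low genes. Without counts, no interval for counting error is given. Descriptive values, with no test, were made in Python 3.11.15 with pandas 2.3.3. The named transcripts were the 2 most abundant per gene and those with an unadjusted p under 0.05, and others are marked. The members and lists were chosen with earlier results of these data known. Exon structures and sequences came from GENCODE v44 on GRCh37, where 50 of the 76 transcripts had the same bounds as in the files and 26 had others. Splice junctions of HNRNPA1 are not reported here.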

Additional observations from a re-analysis of the deposited data

How the results depend on the processing

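With 2 libraries per group the direction of 8 of the 10 gene totals turned on single libraries. No hnRNP gene total and no hnRNP transcript was called by limma under any alternative run. With the replicate block, 0 hnRNP gene totals and 0 transcripts were called in limma (lowest adjusted p 0.388 for the gene totals), while over all genes 12 gene totals were called higher and 1 lower. At an unadjusted p under 0.05 in this fit, 2 of the 10 hnRNP gene totals were higher and 0 lower, beside 693 and 333 of all 11361. The 2 were HNRNPU (adjusted p 0.388 in limma) and HNRNPD (adjusted p 0.518). Of the 60 hnRNP transcripts, 2 were higher and 1 lower, beside 695 and 533 of all 23375. The 2 libraries sharing a number are not said to share a batch, and their deviations from the group means correlated at 0.187 over all gene totals, 0.03 over all transcripts and 0.378 over the 60 hnRNP transcripts. The count tests planned for count files were not run on FPKM. The depth is unknown, and many transcripts have values listed at 0.

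The hnRNP transcripts at least 2-fold higher numbered 7 and those at least 2-fold lower 0 at a mean of at least 5 FPKM, where 30 hnRNP transcripts enter (10.6% higher and 8.60% lower over all), and the lower ones 14 with no filter (28.0% over all). Leaving out single libraries moved the higher count from 9 to 28, the lower from 6 to 22 and the gene totals 2-fold higher from 0 to 4, while over all features these shares ran from 17.7% to 31.4%, from 18.8% to 29.4% and from 7.94% to 16.2%. The count of 8 genes higher in replicate 1 was 7 when transcripts were weighted by length. Other scalings reversed the log2 fold change of HNRNPA1 (0.036 with length weights), HNRNPA3 (-0.073), HNRNPA3-202 (-0.053) and HNRNPK-201 (-0.049) by quantile normalization, and of HNRNPF (-2.51) and HNRNPM (-0.16) by the most abundant transcript; the cause was not tested. With single libraries left out, the log2 fold change of the gene total ran from -0.37 to 0.20 for HNRNPA0, -0.13 to 0.29 for HNRNPA3, 9.52e-05 to 1.19 for HNRNPD, -0.22 to 0.58 for HNRNPF, -0.33 to 1.17 for HNRNPH1, -0.19 to 0.69 for HNRNPK, -0.84 to 0.10 for HNRNPL, -0.81 to 1.15 for HNRNPM and -0.12 to 1.69 for HNRNPU. For transcripts it ran from -0.37 to 0.20 for HNRNPA0-201, -0.38 to 0.55 for HNRNPA3-202, -1.16 to 1.95 for HNRNPA3-201, -0.11 to 0.69 for HNRNPD-202, -0.31 to 1.05 for HNRNPD-203, -5.37 to 0.36 for HNRNPF-201, -2.52 to 1.27 for HNRNPF-206, -1.21 to 1.30 for HNRNPK-201, -1.07 to 0.29 for HNRNPL-201, -3.40 to 3.09 for HNRNPM-213, -0.36 to 1.06 for HNRNPM-201 and -0.048 to 1.12 for HNRNPU-226. The HNRNPA1 gene total and the transcripts HNRNPA1-202, HNRNPA1-203, HNRNPH1-201, HNRNPH1-204, HNRNPK-202, HNRNPL-210 and HNRNPU-205 kept their direction whichever library was left out. The length weights and the scalings of the replicate count were chosen after seeing the data.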
